A study of Enchytraeus crypticus with 9 samples.

Results

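The comparison of UV Dose 1 with Control asked which transcripts of the soil worm *Enchytraeus crypticus* changed after ultraviolet radiation at a total of 7500 J/m2, given over 5 days. It rested on 6 single-colour arrays, 3 of UV Dose 1 and 3 of Control, out of 9 in the series. Each array held RNA from a separate whole-body pool of 40 adult worms kept in reconstituted water, and Control worms stayed under laboratory light without UV radiation. The other 3 arrays were of UV Dose 2, with 8100 J/m2 in the same number of days, and they entered the normalization and the estimate of the spread. A free-text label of these arrays calls them dose 1 beside the 8100 J/m2, against their titles and treatment labels, which were followed. Of 43750 gene probes on the array, 28270 (64.6%) had a signal positive and significantly above background on all 6 UV Dose 1 and Control arrays. After 28 probes with an outlier flag were left out, 28242 were tested. A pool averages all tissues of 40 worms, so more cells of a type and more RNA per cell cannot be told apart.

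Enchytraeids are small, pale relatives of the earthworm that live in soil and litter, and *E. crypticus* is a standard species for ecotoxicity tests. Ultraviolet radiation of the UVB range is absorbed by DNA, in which it links neighbouring pyrimidine bases, and it also generates reactive oxygen species. Animals respond with DNA repair, with antioxidant and chaperone proteins, and with arrest of the cell cycle. The probes carry the identifiers of assembled contigs and of single sequencing reads (prefixes GYUW2K401 and GYUW2K402). The files used here do not pair these with gene names, so every result below belongs to a probe and no role can be given to it. Probes that measured the same transcript could not be recognised from their names.

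Levels are log2 processed intensities after SVCD normalization, which scales the groups on genes without variation across the groups. It found 9496 no-variation genes among 27880 probes complete on the 9 arrays (34.1%). Pearson correlations of the levels ran from 0.944 to 0.971 among Control arrays, from 0.965 to 0.986 among UV Dose 1 arrays, and from 0.941 to 0.976 between the groups. The median SD of a probe was 0.35 over Control arrays and 0.28 over UV Dose 1 arrays on the log2 scale, and the Control SD was the larger for 59.4% of probes. Control replicate 2 had the fewest gene probes positive and significantly above background, 29844, and Control replicate 3 had the most, 39849. The arrays lay on 4 slides. Control replicates 1 and 3 were each the only array of their slide (slides 1 and 3), slide 2 held Control replicate 2 with UV Dose 1 replicates 2 and 3, and slide 4 held UV Dose 1 replicate 1 with the UV Dose 2 arrays. Control replicate 3 was also scanned on a different day from all the other arrays, which shared 1 day. The 3 arrays per group limit the precision of all values.

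Under UV Dose 1, 1469 of 28242 tested probes (5.2%) were differentially expressed at an adjusted p under 0.05 (limma, Benjamini-Hochberg), and 5358 (19%) had an unadjusted p under 0.05. Most were under-expressed: 1138 probes fell (4.03% of those tested) and 331 rose (1.17%). Over-expressed probes made up 22.5% of the calls, a balance of -0.55 on a scale from -1, all under-expressed, to +1, all over-expressed. The median change over all tested probes was -0.03 (log2). The sizes of change were alike in both directions, with a median fold change of 2.35 for the over-expressed probes (interquartile range 1.94 to 2.87) and 2.38 for the under-expressed probes (1.94 to 3.14). The smallest fold change among the calls was 1.52. There were 232 rises and 809 falls of more than 2-fold, which were 70.1% of the rises and 71.1% of the falls. Changes of more than 4-fold numbered 36 and 159 (10.9% and 14.0%). The parts of each list differed more at the far end, where counts were small. Changes of more than 8-fold numbered 4 and 40 (1.21% and 3.51%), and of more than 16-fold 0 and 8 (0% and 0.70%). With probes that were not well above background in a group at the bound that this allows, the falls numbered 37 and 6 in the last pair of classes, and the rises stayed at 4 and 0. The 3 UV Dose 1 arrays lay entirely above or entirely below the 3 Control arrays for all 1469 called probes, against 23.4% of all tested probes (8.99% above, 14.4% below), a property that the selection of calls by the test largely brings with it. With the slide as a fixed block 29 probes were called, 11 of them among the 1469, and with spike-in scaling 277. Leaving out 1 array lowered the count to 759, 994 and 808 without Control replicates 1, 2 and 3. It was 650, 840 and 612 without UV Dose 1 replicates 1, 2 and 3. Without UV Dose 2 replicates 1, 2 and 3 it was 936, 950 and 1038. The split into rises and falls was 366 and 605 after Median normalization, 435 and 843 after Quantile normalization, 341 and 487 with scaling to the 75th percentile, 443 and 907 after cyclic loess, and 204 and 2516 after MedianCD normalization.

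**Figure D1:**
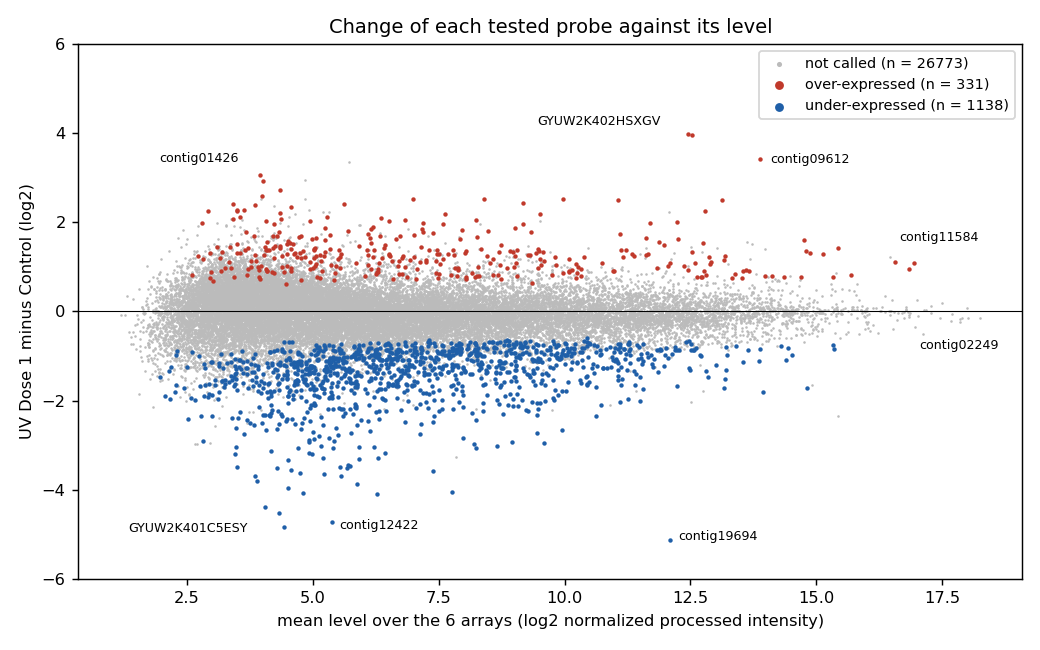
Mean level of each of the 28242 tested probes over the 6 arrays (x axis, log2 normalized processed intensity) against its change from Control to UV Dose 1 (y axis, log2), with over-expressed probes in red, under-expressed probes in blue and probes not called in grey. Falls outnumber rises (1138 against 331), and contig19694, the deepest of them, stands alone at a high level.

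Over-expressed probes started lower and ended higher than under-expressed ones. The median level of the 331 over-expressed probes was 6.16 in Control and 7.39 in UV Dose 1, and that of the 1138 under-expressed probes was 7.43 in Control and 6.06 in UV Dose 1. Measured as a part of the summed intensity of all tested probes, the over-expressed probes held 1.57%, 2.07% and 2.12% on Control replicates 1 to 3 and 4.51%, 4.75% and 4.36% on UV Dose 1 replicates 1 to 3. The under-expressed probes held 3.46%, 3.59% and 3.95% on the Control arrays and 1.85%, 1.55% and 1.85% on the UV Dose 1 arrays. So the 331 probes that rose carried more of the signal under UV Dose 1 than the 1138 that fell, and less of it in Control. These parts describe the called probes and, since the same arrays chose them, were not tested. A sum weighs the brightest probes most. Among the rises these include contig11584, contig00751, contig18233 and contig09404, with means of 16.10 to 17.49 in UV Dose 1. Each of their calls was lost in some or all of the fits with 1 array left out, as described below. Relative to the Control mean, the median change of the over-expressed probes was 1.23, 1.23 and 1.13 on the 3 UV Dose 1 arrays and that of the under-expressed probes -1.29, -1.27 and -1.16 (log2). All called probes lay on 1 side of Control on each of these arrays, so the medians had to share their direction. Each Control array against the other Control arrays gave medians between -0.08 and 0.11 for the first list and between -0.10 and 0.16 for the second.

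**Figure D2:**
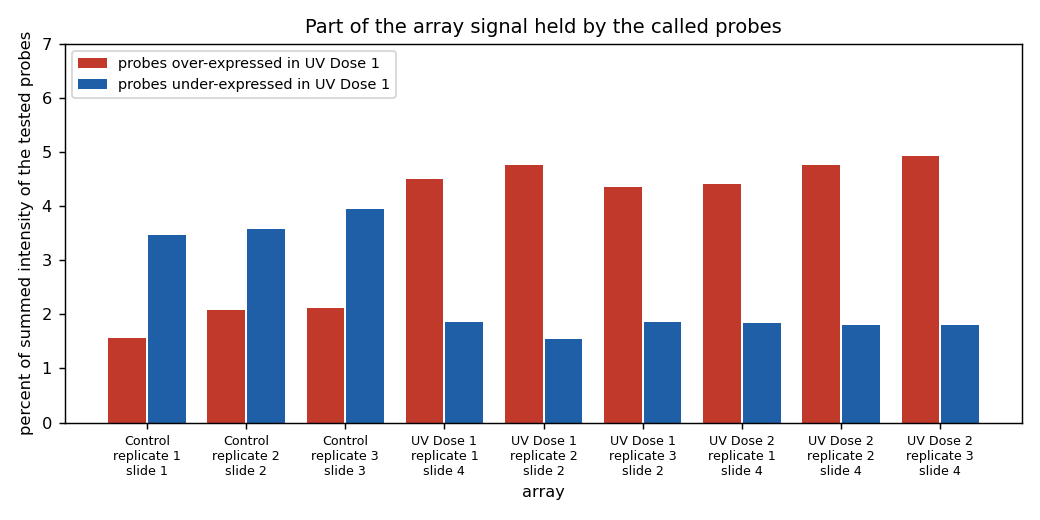
Percent of the summed processed intensity of the tested probes (y axis) held on each of the 9 arrays (x axis) by the probes over-expressed (red) and under-expressed (blue) in UV Dose 1. The red bars reach from 1.57% to 2.12% on the Control arrays and from 4.36% to 4.75% on the UV Dose 1 arrays, which chose the probes together with the Control arrays.

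Calls were spread over the whole range of levels but were rarest among dim probes. The tested probes were divided into 5 equal classes by mean level over the 6 arrays. From the dimmest class to the brightest, 1.96%, 3.98%, 6.29%, 7.06% and 6.71% were called. The dimmest class, with levels from 1.19 to 3.71, had a median Control SD of 0.51, and the brightest, from 8.92 to 18.2, had 0.22. The median fold change among calls ran the other way, from 2.75 in the dimmest class to 2.11 in the brightest. Falls outnumbered rises in each of the classes, and the over-expressed part of the calls was 27.0%, 28.4%, 16.9%, 19.5% and 26.1% from dim to bright. By kind of identifier, 5.51% of 14295 contig probes, 4.68% of 7068 probes with the GYUW2K401 prefix and 5.10% of 6879 with the GYUW2K402 prefix were called. Over-expressed probes were 21.1%, 23.3% and 25.1% of these calls.

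**Figure D3:**
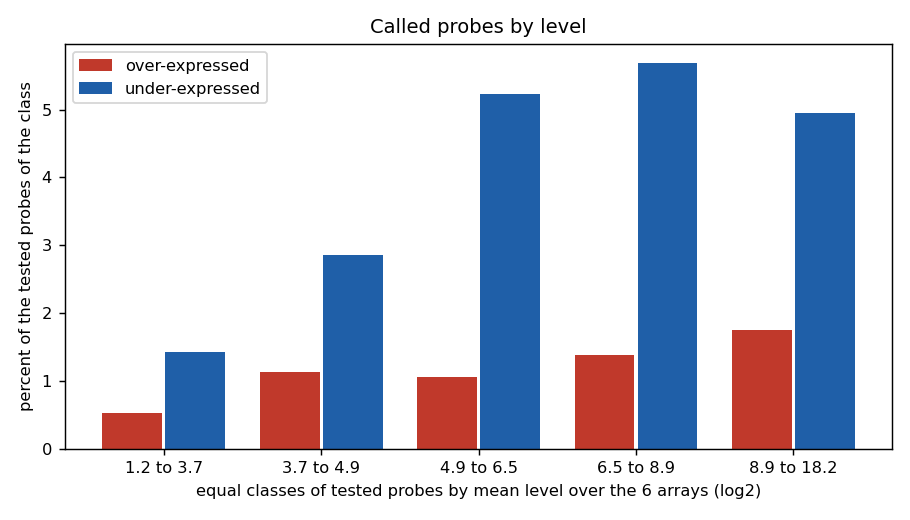
Percent of tested probes called over-expressed (red) and under-expressed (blue) in each of 5 equal classes of probes by mean level over the 6 arrays (x axis, range of log2 levels). Under-expressed probes outnumber over-expressed ones in each class, and both are fewest in the dimmest, at 1.43% and 0.53%.

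The deepest fall was that of contig19694. Its level was 14.50, 14.88 and 14.64 on the Control arrays and 9.77, 8.82 and 10.01 on the UV Dose 1 arrays. It was thus a bright probe in Control worms, and all 3 pools after UV radiation lay far below. The change was -5.14 (SE 0.30, log2), or 35.3-fold lower, with an adjusted p of 0.000317 in limma. It was the only probe among the 1469 that was also called under each of the 31 other settings that were run, with estimates between -5.47 and -4.70.

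Among probes well above background on at least 1 array of each group, the next largest falls started from much lower levels. The level of contig12422 was 7.83, 7.56 and 7.85 in Control and 2.55, 3.80 and 2.69 in UV Dose 1, 26.6-fold lower, with 1 of the 3 UV Dose 1 arrays well above background. In contig02735 it went from 8.37, 8.47 and 8.17 to 3.54, 5.28 and 3.87, 17.2-fold lower. In both, UV Dose 1 replicate 2 was the highest of its group by more than 1 log2 unit, and the groups stayed well apart. The probe contig14888 measured 7.05, 6.84 and 6.65 in Control against 3.07, 3.07 and 2.17 in UV Dose 1, 16.9-fold lower, with 2 of the 3 well above background. GYUW2K402GFQEG was brighter than these, at 10.08, 9.54 and 9.73 in Control and 5.80, 5.95 and 5.48 in UV Dose 1, 16.5-fold lower. The arrays of this last probe were close within each group, with an SD of 0.27 in Control and 0.24 in UV Dose 1. Their adjusted p values in limma were 0.000509 for contig12422 and GYUW2K402GFQEG, 0.00101 for contig14888 and 0.00205 for contig02735. The calls held with normexp background correction (offset 50), but the folds did not. They fell to 3.89 for contig12422, 4.63 for contig02735, 2.92 for contig14888 and 7.87 for GYUW2K402GFQEG. This alternative also changed the background correction and used the median spot signal, and the part of the offset alone was not tested.

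Further falls of this size were contig16478, GYUW2K401CLOKO and GYUW2K402J2M11. The level of contig16478 was 6.50, 6.44 and 6.54 in Control, the tightest Control group among the named probes with an SD of 0.05, and 2.56, 3.19 and 1.85 in UV Dose 1. Its signal was well above background on 1 of the 3 UV Dose 1 arrays, so its 15.5-fold difference rests on faint spots there. GYUW2K401CLOKO measured 7.99, 7.72 and 7.75 in Control and 4.04, 3.72 and 4.05 in UV Dose 1, 14.7-fold lower. GYUW2K402J2M11 measured 7.50, 7.13 and 7.56 in Control and 4.26, 3.60 and 3.24 in UV Dose 1, 13.0-fold lower. Both were well above background on all 6 arrays, with adjusted p values of 0.000317 and 0.000527 in limma. With normexp the folds were 2.33, 3.59 and 2.93 in the order given, all called. None of the 8 falls described so far lost its call when any 1 of the 9 arrays was left out.

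The largest rises were of a pair of probes with nearly equal levels. GYUW2K402HSXGV measured 10.99, 10.34 and 10.07 in Control and 14.05, 14.91 and 14.40 in UV Dose 1. GYUW2K402HFWBH measured 11.09, 10.51 and 10.04 in Control and 14.10, 14.95 and 14.49 in UV Dose 1. They differed by at most 0.17 (log2) on any of the 9 arrays, and whether they come from the same transcript could not be read from the files. Their changes were 3.99 (SE 0.29) and 3.97 (SE 0.30), or 15.9-fold and 15.6-fold higher, with adjusted p values of 0.000527 and 0.000586 in limma. The brightest of the strong rises was contig09612, at 12.75, 11.93 and 11.85 in Control and 15.24, 15.94 and 15.60 in UV Dose 1, a change of 3.42 (log2, adjusted p = 0.000699, limma). In these 3 probes Control replicate 1 was the highest Control array and UV Dose 1 replicate 1 the lowest treated array, and more than 2 log2 units lay between the groups.

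Other rises began near background. The level of contig01426 was 2.22, 2.13 and 2.89 in Control and 5.22, 5.69 and 5.52 in UV Dose 1, 8.36-fold higher (adjusted p = 0.00251, limma). GYUW2K401DSH4W went from 3.03, 1.98 and 2.63 to 5.66, 5.38 and 5.37, 7.59-fold higher (adjusted p = 0.00145). GYUW2K401AM53B went from 3.04, 2.00 and 3.02 to 5.57, 4.82 and 5.42, a change of 2.59 (log2, adjusted p = 0.00837). Each of them was well above background on all 3 UV Dose 1 arrays and on 1 Control array, so the Control level is the uncertain side of these ratios. With normexp they were 1.69-fold, 1.51-fold and 1.61-fold higher, and still called. A rise from a moderate level was that of contig16184, from 5.89, 5.76 and 5.52 to 7.78, 8.81 and 8.18, 5.78-fold higher (adjusted p = 0.00539), or 3.27-fold with normexp. These 4 probes, with GYUW2K402HSXGV, GYUW2K402HFWBH and contig09612, were called in limma with any 1 array left out.

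The call of contig12474 was less secure. Its level was 1.30, 3.87 and 3.77 in Control and 5.67, 5.82 and 5.66 in UV Dose 1, 6.65-fold higher (adjusted p = 0.0378, limma). Control replicate 1 stood more than 2 log2 units below the other Control arrays. Without it the change was smaller, 2.04 in place of 2.73, but the adjusted p was lower, 0.00721 (limma). With normexp the change was 0.67. The adjusted p passed 0.05 when Control replicate 3 (0.0516) or any 1 UV Dose 1 array (0.0846 to 0.116) or UV Dose 2 array (0.0606 to 0.0666) was left out.

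**Figure D4:**
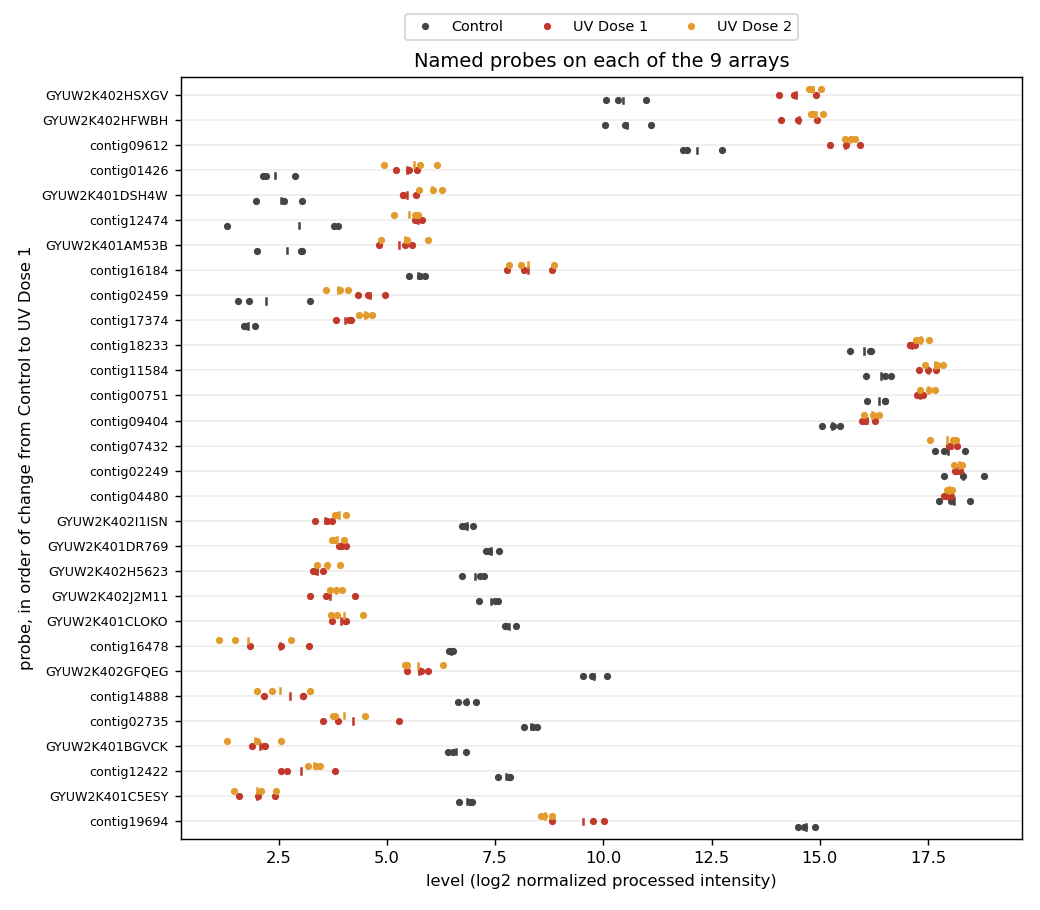
Level on each of the 9 arrays (x axis, log2 normalized processed intensity) of the probes named in the text (y axis, in order of change), with Control in grey, UV Dose 1 in red and UV Dose 2 in orange, a point per array and a short bar at each group mean. Control and UV Dose 1 points do not overlap in any of the 27 called probes, and overlap in contig02249, contig04480 and contig07432, the brightest gene probes.

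Some changes could be given only as a bound, because no array of a group had a signal well above background. This was so in UV Dose 1 for 57 of the 1138 falls and in Control for 3 of the 331 rises. With such probes at their bound the median fold change was 2.35 in either direction. GYUW2K401C5ESY measured 6.67, 6.97 and 6.92 in Control and 2.41, 2.04 and 1.58 in UV Dose 1, and was at least 19.1-fold lower (adjusted p = 0.000350, limma). GYUW2K401BGVCK measured 6.84, 6.41 and 6.52 in Control and 1.89, 2.16 and 2.18 in UV Dose 1, and was at least 15.9-fold lower (adjusted p = 0.000509). Both were moderate in Control worms and, though positive and significant, not well above background in any pool after UV radiation. With normexp they were 3.06-fold and 2.34-fold lower, so these bounds hold only for the processed intensity. In the other direction contig02459 rose from 1.56, 3.22 and 1.82 to 4.33, 4.95 and 4.57, at least 3.21-fold (adjusted p = 0.0139). It was not called without Control replicate 3 (adjusted p = 0.0557) or without UV Dose 1 replicate 3 (0.0525). For contig17374 the levels were 1.96, 1.70 and 1.73 in Control and 3.82, 4.12 and 4.17 in UV Dose 1, at least 2.15-fold higher (adjusted p = 0.000586), on the same scale. Neither rise was called with normexp, with 1.17-fold (adjusted p = 0.341) for contig02459 and 1.23-fold (0.0878) for contig17374, nor with the slide as a fixed block (0.139 and 0.0598).

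Over all gene probes of the array, 53 were well above background on the 3 Control arrays and on no UV Dose 1 array, and 46 on the 3 UV Dose 1 arrays and on no Control array. Of the 53, 33 met the rule for testing and 22 were called. Of the 46, 16 met it and 3 were called. Among all tested probes 4.03% fell and 1.17% rose, and these probes were chosen by detection in a single group, which itself favours a call, so nothing is read from the counts. The brightest of the first kind were GYUW2K401C5ESY and GYUW2K401BGVCK, described above. The brightest of the second kind by mean level was contig20977, with 3.49, 3.24 and 2.30 in Control and 4.04, 3.71 and 3.74 in UV Dose 1, which was at least 1.59-fold higher but not called (adjusted p = 0.171, limma), followed by contig02459.

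Among the brightest probes the share of calls was close to that of all tested probes, and the 4 calls in the first 100 ranks were all rises. The ranks use the mean level over both groups, so a rise itself moves a probe up. Of the 100 probes with the highest mean level, 4 were over-expressed and 0 under-expressed in limma (4% called, beside 5.2% of all tested probes). Of the first 1000, 33 were over-expressed and 21 under-expressed (5.4%). The level of contig11584 was 16.07, 16.65 and 16.50 in Control and 17.30, 17.68 and 17.50 in UV Dose 1, 2.12-fold higher (adjusted p = 0.0250). That of contig00751 was 16.09, 16.52 and 16.51 against 17.31, 17.39 and 17.25, 1.92-fold higher (adjusted p = 0.0233). That of contig18233 was 15.70, 16.19 and 16.15 against 17.08, 17.20 and 17.08, 2.15-fold higher (adjusted p = 0.0135). The 3 probes ran in parallel over the 9 arrays, with Control replicate 1 the lowest in each, and after centring each on its own mean they differed by at most 0.18, 0.16 and 0.12 in the 3 pairings. The level of contig09404 was 15.30, 15.05 and 15.46 against 16.26, 15.98 and 16.05, 1.77-fold higher (adjusted p = 0.0383).

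The calls of these 4 bright probes lay near the threshold, and each was lost in some or all of the fits with 1 array left out. Leaving out an array also lowered the count of all calls, to between 612 and 1038. Leaving out 1 array ended the call of contig09404 in each of 9 cases (adjusted p from 0.0506 to 0.138), that of contig00751 without Control replicates 2 and 3, any UV Dose 1 array or UV Dose 2 replicate 2 (0.0506 to 0.0820), and that of contig11584 without Control replicate 3, any UV Dose 1 array or UV Dose 2 replicate 2 (0.0517 to 0.0922). The call of contig18233 ended without UV Dose 1 replicate 1 (0.0504) or 3 (0.0550). With a single array left out their changes still ran from 0.67 to 1.16. The 3 brightest gene probes of all were not called: contig02249 measured 18.80, 18.30 and 17.86 in Control and 18.15, 18.24 and 18.13 in UV Dose 1, contig04480 measured 18.48, 18.03 and 17.76 against 17.86, 18.02 and 17.91, and contig07432 measured 18.36, 17.87 and 17.67 against 17.98, 18.17 and 17.98. In each of them the Control arrays spanned the UV Dose 1 arrays.

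The slide moved with the groups, because slide 2 alone held arrays of both. With the slide as a fixed block, only this slide (Control replicate 2 against UV Dose 1 replicates 2 and 3) carries the change, and 29 probes were called in limma (0.103% of those tested, 6 rises and 23 falls), beside 4419 at an unadjusted p under 0.05. Of these, 11 were among the 1469, and they were 4 rises (GYUW2K402HSXGV, GYUW2K402HFWBH, contig09612 and GYUW2K401DSH4W) and 7 falls (contig19694, GYUW2K401C5ESY, GYUW2K402J2M11, GYUW2K402H5623, GYUW2K401DR769, GYUW2K402I1ISN and contig16550). Their changes within slide 2, which has 1 Control array and gives 3 of the 6 arrays of the overall change, were 4.31 beside 3.99 for GYUW2K402HSXGV, 4.21 beside 3.97 for GYUW2K402HFWBH, 3.84 beside 3.42 for contig09612, and -5.47 beside -5.14 for contig19694, and since the probes were chosen for passing both fits these values are a description. With the slide as a random block the count was 1491. The standard error of the change was 1.35 times larger with the fixed block.

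The falls called both ways with the smallest p were steady in each group. GYUW2K401DR769 measured 7.60, 7.29 and 7.35 in Control and 3.94, 3.88 and 4.07 in UV Dose 1, 10.9-fold lower (3.23-fold with normexp) and -3.31 (log2) within slide 2. GYUW2K402I1ISN measured 6.98, 6.74 and 6.82 against 3.73, 3.62 and 3.35, 9.71-fold lower (2.65-fold with normexp) and -3.26 within slide 2. GYUW2K402H5623 measured 7.25, 6.74 and 7.15 against 3.35, 3.52 and 3.31, 12.6-fold lower (2.92-fold with normexp) and -3.32 within slide 2. Each had an adjusted p of 0.000317 without the block, and 0.0412, 0.0435 and 0.0495 with it (limma), and more than 3 log2 units lay between the groups in each of them.

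The arrays outside slide 2 gave a comparison that shares no array with it: Control replicates 1 and 3 against UV Dose 1 replicate 1, all on different slides. The normalization was that of the 9 arrays, and the lone UV Dose 1 array was assumed to vary like the other groups. The comparison was added after the values had been seen. Among all tested probes, 70.6% changed in the same direction on slide 2 and outside it. Without slide 2, limma called 5 probes, beside 4168 at an unadjusted p under 0.05, and their changes outside and on slide 2 were -5.28 and -4.32 for contig12422, -4.80 and -5.47 for contig19694, -4.15 and -3.32 for contig17580, -3.78 and -3.06 for GYUW2K402G759C, and 4.89 and 0.30 for contig10994. The first 4 of these were also among the 1469 calls. The change of contig10994 outside slide 2 was therefore hardly seen on it, and the part of the slide in that difference was not tested.

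The higher dose gave levels near those of UV Dose 1 in the named probes. Both doses are set against the same Control arrays, so only the doses themselves were compared. Between them, limma called 0 of 28235 probes. An unadjusted p under 0.05 in limma was reached by 1013 (3.59%), and the lowest adjusted p was 0.152. Among the called probes it was reached by 115 of 1468 (7.83%). The UV Dose 1 arrays had also chosen these probes, so the larger share was not tested. On the UV Dose 2 arrays contig19694 measured 8.55, 8.63 and 8.81, below the mean of 9.53 in UV Dose 1, and the difference of -0.87 was the largest between the doses among the named probes. GYUW2K402HSXGV measured 15.02, 14.80 and 14.74, against a mean of 14.46 in UV Dose 1. Over the called lists, the median level in UV Dose 2 was 7.57 for the 331 over-expressed and 6.20 for the 1138 under-expressed probes, beside 7.39 and 6.06 in UV Dose 1. The doses are 7500 and 8100 J/m2 and the UV Dose 2 arrays share slide 4 with UV Dose 1 replicate 1, and the absence of a call does not show that the doses act alike.

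The count of calls depended on the setting and ran from 5 to 2720 over the 31 other settings. No probe called in both was called in the opposite direction under any of them. The settings share their arrays, and the groups lay apart in every called probe. A reversed call was thus hardly possible, and nothing is read from its absence. Of the 1469 probes, 440 (83 rises and 357 falls) were called with each of the 9 arrays left out in turn. Under each of the 7 other normalizations 260 were called, 61 rises and 199 falls, so 23.5% of those were over-expressed. Of the 27 named probes that were called, 21 kept the call in limma with each array left out.

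**Figure D5:**
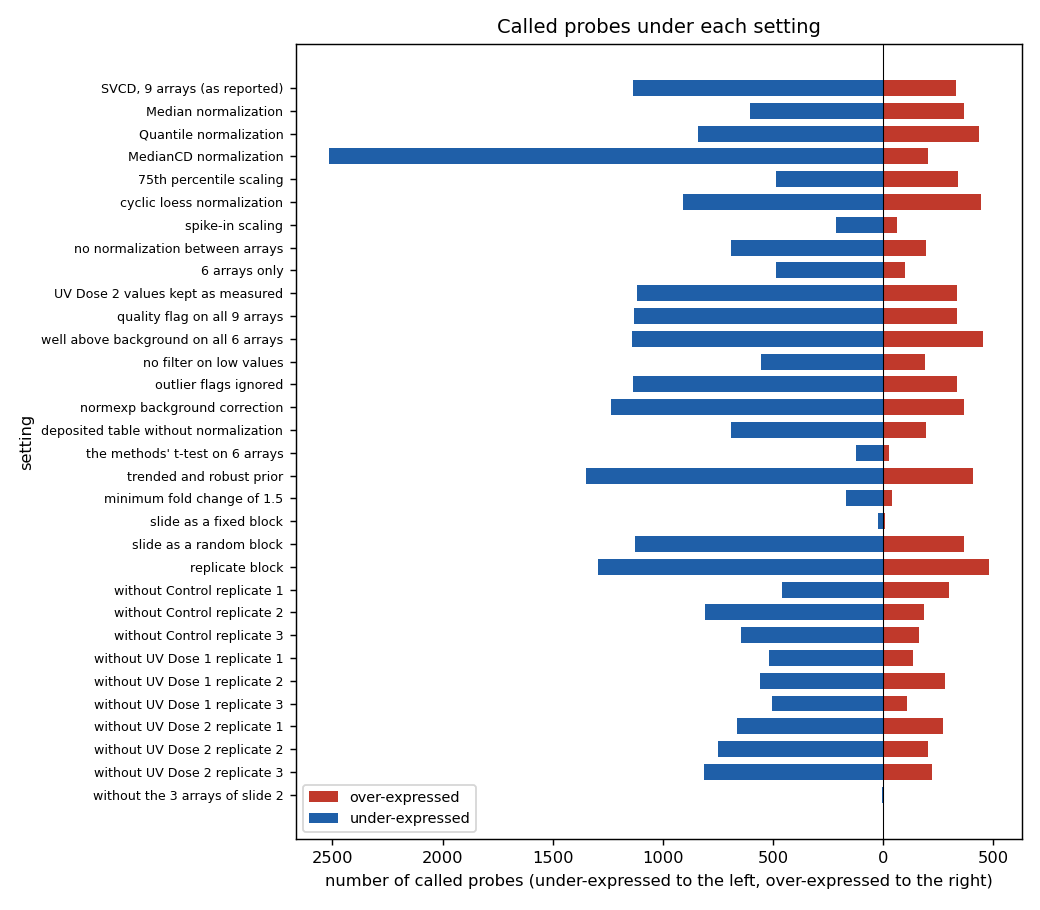
Number of probes called at an adjusted p under 0.05 (x axis, under-expressed to the left in blue, over-expressed to the right in red) under the reported setting and each alternative (y axis). Under-expressed probes are the larger part under every setting plotted, from 487 against 341 with scaling to the 75th percentile to 2516 against 204 with MedianCD normalization, and 29 and 5 calls are left with the slide as a fixed block and without slide 2.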

How the data were processed

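Scanner files of 9 arrays were read, with groups and replicate numbers from the titles. The authors amplified and labelled the RNA of each pool and read the spots in Agilent Feature Extraction (version 10.7.3.1 per the file headers). The deposited intensity is linear and background-subtracted, with no normalization between arrays. The deposited quality flags were used to choose the probes. The deposited table of the series holds the same intensity rounded, within 0.497% of the scanner files, and served only as an alternative.

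Expression levels were log2 intensities, with no pseudocount. A UV Dose 2 value with an unset or outlier flag was treated as missing, which concerned 432 values in 362 probes. SVCD normalization was rewritten in R 4.3.3 from the methods (variance trimming fraction 0.01, Kolmogorov-Smirnov level 0.001). Probes were tested with limma 3.58.1 (lmFit and eBayes), all 9 arrays in a single fit with group means as the terms, two-sided, with Benjamini-Hochberg adjustment over all tested probes. Scripts were checked on simulated arrays.

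Where no array of a group had a signal well above background, the change was a bound. Each dim array was set to its lowest level among probes well above background, or to the measured level where that was higher, and the mean of these was compared with the bright group's mean. Named probes were the 8 largest rises and falls, the 2 largest of each given as bounds, the 4 brightest calls, the 3 rises and 3 falls of smallest p also called with the slide as a block, and, with no test, the 3 brightest probes and the 2 brightest detected in a single group. The slide 2 probes contig16550, contig17580, GYUW2K402G759C and contig10994 were named after their values had been seen. Members, rules and lists were chosen with earlier results of these data known. Gene groups had been planned but were not analysed here, because no gene names were at hand. The normexp alternative (offset 50) used the median spot signal. No array duplicated another.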

Additional observations from a re-analysis of the deposited data

Results flagged for a closer look

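Among the 46 probes well above background on every UV Dose 1 array and on no Control array, 30 lay outside the tested list, because their signal was not significantly above background on every Control array. The brightest of these 30 was contig08877, with a mean level of 4.898 on the UV Dose 1 arrays (SD 0.36, n = 3), which was at least 3.89-fold above its Control bound. It was followed by GYUW2K401AVQ6L, with a mean level of 4.259 (SD 1.34, n = 3), at least 2.50-fold above its bound. Both were positive and significantly above background on 2 of the 3 Control arrays, with mean Control levels of 1.62 and 1.88. They were flagged as signal in data that the comparison did not use, and were not tested. Detection in a single group chose them, which itself favours a difference, and their bounds hold only for the processed intensity. For contig02459 and contig17374, also dim in Control, normexp lowered the rise to 1.17-fold and 1.23-fold.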

How the results depend on the processing

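The reported count was 1469, with 22.5% over-expressed. The count and the over-expressed share were 971 and 37.7% after Median normalization, 2720 and 7.5% after MedianCD normalization, 828 and 41.2% with scaling to the 75th percentile, 587 and 17.2% with the 6 arrays alone, 743 and 25.6% without a filter on low values, 152 and 17.8% with the methods' t-test (4450 at an unadjusted p under 0.05), 209 and 19.6% with a minimum fold change of 1.5, and 5 and 20.0% without the 3 arrays of slide 2, an alternative chosen after seeing the data. The count alone moved to 277 with spike-in scaling, 886 without normalization, 882 with the deposited table and 29 when slide entered as a fixed block. The share alone moved to 34.0% after Quantile normalization, 32.8% after cyclic loess and 28.3% for probes well above background on all 6 arrays. It was 27.1% with the replicate number as a block, also a move of the share alone. A count was taken as moved if it differed from the reported one by more than 1.5 times. A share was taken as moved if it lay outside the confidence interval of the reported share. That interval treats the called probes as independent, although they share their arrays, so a moved share is only a description. Apart from leaving out single arrays, the alternatives without a move in the count gave 1278 to 1776 calls. Leaving out single arrays gave 612 to 1038 calls, with 17.8% (without UV Dose 1 replicate 3) to 39.4% (without Control replicate 1) over-expressed. The cause of these differences was not tested. Some settings also changed the number of arrays or the number of probes tested, and the part of this was not separated.

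The median change over all probes, -0.03, became -0.28 after MedianCD normalization, 0.12 with scaling to the 75th percentile, 0.11 with spike-in scaling and 0.09 after Median normalization. Changes of the named probes kept their direction under every setting wherever they were called, which the shared arrays largely bring with them. Their size did not hold. With normexp and an offset of 50, the fold of 19 of the 27 named calls moved by more than 1.5 times. The fainter group of these 19 had mean levels up to 5.74, while that of the other 8 was 9.53 or higher. Of the 27 named calls, 17 were no longer past the threshold when slide entered as a fixed block, 17 with the methods' t-test and 25 without slide 2.

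The replicate numbers were checked for pairing. Deviations from the group means of arrays with the same number correlated at 0.22, 0.49 and 0.097. Those of arrays with different numbers correlated at -0.47 to 0.36. The arrays of replicate 2, at 0.49, also shared slide 2. UV Dose 1 replicate 3 lay on that slide too, and its deviations correlated with those of Control replicate 2 at -0.14. The parts of number and slide were not tested. These values do not decide whether the numbers are pairs, and the reported fit did not take them as such. With the replicate block 1776 probes were called, 27.1% of them over-expressed. The dimmest class of probes had the largest spread between arrays, with a median SD of 0.51 in Control and 0.46 in UV Dose 1 (log2). The part of signal over background in this was not tested.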
